A study of Rattus norvegicus with 18 samples.

Results

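The 9 complement components described here are C1qa, C1qb, C1qc, C1s, C2, C3, Cfb, Cfd and Serping1, followed in rat proximal sciatic nerve over the first 9 h after transection. They were taken by name, with no measured value in the rule: a probe belonged to a component if the array's gene name or its transcript accession was that gene. This gave 13 probes among 41012 non-control probes, with 2 probes each for C1qa, C1qc, C1s and Serping1 and 1 for each of the other genes. All 13 were well above background on all 18 arrays and none was saturated, so every component was among the 27198 genes tested. A level below is the log2 signal of a probe minus the 75th percentile of its array, and a difference is one log2 level minus another.

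Nerves came from adult male Sprague-Dawley rats of 180 to 220 g, in which a 1 cm segment of the sciatic nerve was cut out just above the tibial and peroneal branches. Proximal nerve tissue of 0.5 cm was collected at 0, 0.5, 1, 3, 6 and 9 h after this resection, and RNA was hybridised to 1-colour 60-base oligonucleotide arrays, 3 arrays per time-point. The 0 h tissue served as the control, and every group, the control included, had the nerve exposed and cut under anaesthesia. The labels do not say whether an array holds RNA of 1 rat or of several, so the spread between arrays may be partly technical.

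Complement is a set of plasma and tissue proteins that tags debris and microbes for uptake. In the classical pathway the C1q hexamer, assembled from the A, B and C chains, binds its target and activates the proteases C1r and C1s, which cleave C4 and C2 to form a C3 convertase. In the alternative pathway factor B (Cfb) binds activated C3 and is cut by factor D (Cfd), giving a second C3 convertase that amplifies deposition of C3, while C1 inhibitor (Serping1) blocks C1s and C1r. In nerve, complement opsonins are known for their part in the clearance of myelin debris by macrophages.

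Cfb and C3 rose after transection, C1qb had its highest mean at 1 h and had fallen from it by 6 h, and the brighter Serping1 probe, unlike the second, was called lower at 9 h. Cfb reached 3.07-fold and C3 1.79-fold of their 0 h levels at 9 h. C1qa, C1qc, C1s, C2 and Cfd did not pass the test in any of the 15 pairwise comparisons of time-points. In the moderated F-test of limma over the 6 time-points, 3 of 9 components were called (Cfb, C3 and C1qb), where 34.8% of all tested genes were called. The share among the components was close to that background. To be called, a probe had to reach P under 0.01 before adjustment and, after the Benjamini-Hochberg adjustment over all probes tested, under 0.05.

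**Figure D1:**
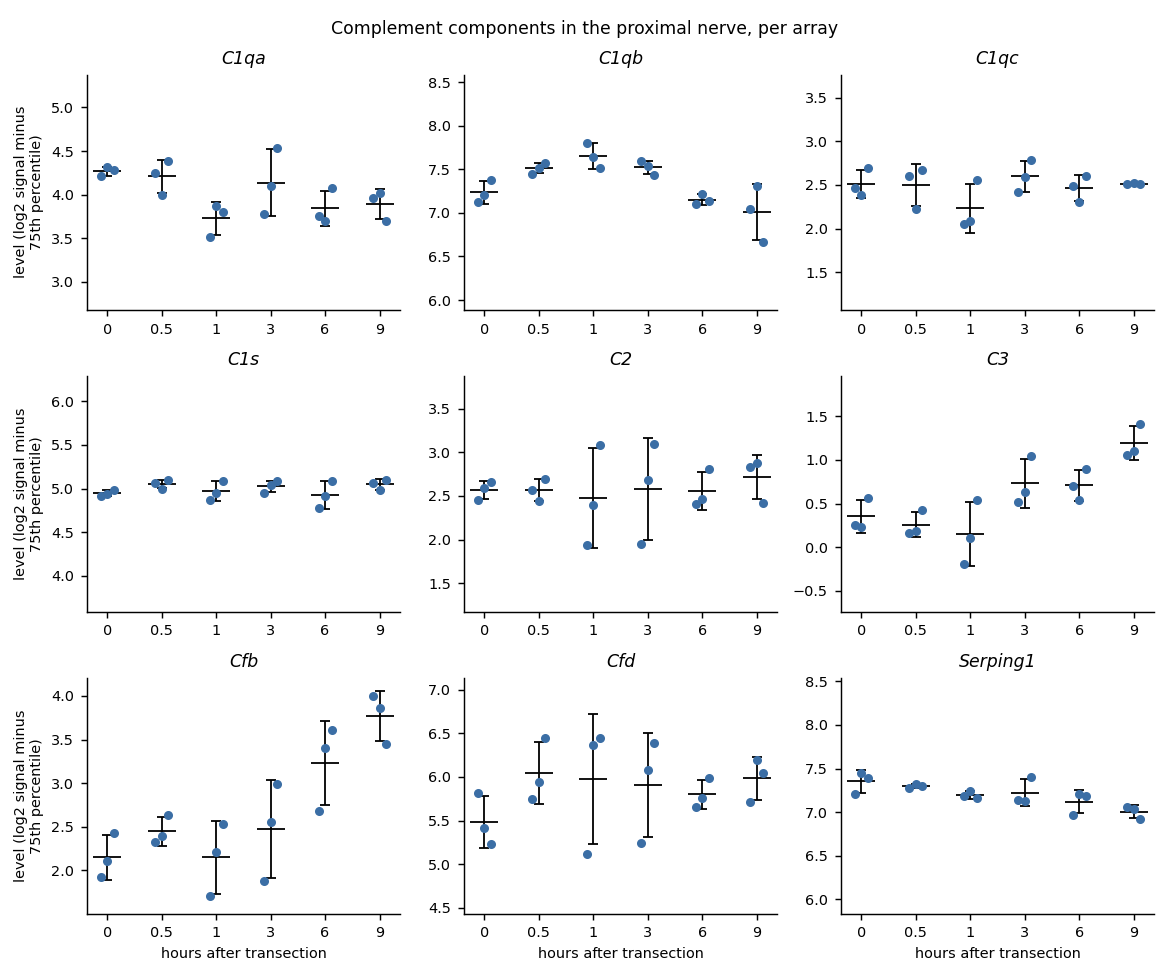
Level of each complement component (log2 signal minus the 75th percentile of the array) against hours after transection. Blue points are single arrays, bars the mean ± SD of 3 arrays, and every panel spans the same log2 range; Cfb climbs to 3.45 to 4.0 at 9 h, all above the 1.92 to 2.43 of 0 h, while C1s stays between 4.78 and 5.10 on all 18 arrays.

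Per array, 65.9% to 93.5% of the non-control spots were well above background, arrays of 1 time-point correlated at 0.976 to 0.992, and the median difference of all tested genes from 0 h stayed between 0.00 and 0.02. All 14 Schwann cell markers examined were well above background on all 18 arrays. The 0 h replicate 1 array stood apart in skeletal muscle RNA, with a summed muscle marker level of 2108 against 148 and 208 in the other 0 h arrays, and results that use 0 h are therefore also given without it where a component was called. The 0 h and 0.5 h arrays were scanned on 1 day, the 1, 3 and 6 h arrays and 9 h replicates 1 and 2 on another, and 9 h replicate 3 on another day again. A difference of 1 to 9 h from 0 h therefore cannot be told apart from a difference between scan days. Comparisons within the second scan day are given beside it for the components called and for several other complement genes. No slide held arrays of more than 1 time-point. Differences between time-points, also within the second scan day, therefore cannot be told apart from differences between slides. In whole nerve, fewer cells of a type and less RNA per cell cannot be told apart.

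The genes of the C1q chains lie side by side, and the 5 probes for them fell on chromosome 5 of the rn4 build, with 15171 bases between the outermost probes. The C1qa and C1qc probes are shown because their mean levels at 1 h lay below those at 0 h, that of C1qc within the spread of the arrays, whereas that of C1qb lay above. They are written 5′ to 3′ in lower case, as on the array. The C1qa probe lies at chr5:155662578-155662637 and the C1qc probe at chr5:155656638-155656697, both on the minus strand.
C1qa probe: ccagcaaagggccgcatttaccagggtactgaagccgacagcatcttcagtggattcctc
C1qc probe: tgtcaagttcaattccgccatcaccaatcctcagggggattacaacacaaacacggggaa

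C1qb, the B chain of the recognition hexamer, had levels of 7.13, 7.20 and 7.38 at 0 h. The 0.5 h arrays gave 7.45, 7.52 and 7.57, the 1 h arrays 7.80, 7.64 and 7.51, and the 3 h arrays 7.59, 7.53 and 7.44. All 9 arrays of 0.5 to 3 h lay above all 0 h arrays. The levels were then 7.10, 7.22 and 7.13 at 6 h and 7.05, 7.31 and 6.67 at 9 h, back among or below the 0 h arrays. The gene was called over the time-points (limma F-test, adjusted P = 0.00821).

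The higher level of C1qb after transection was not called at any single time-point. At 1 h the difference from 0 h was 0.41 (95% interval 0.13 to 0.70, limma adjusted P = 0.0874). It was called with array weights (0.47, limma adjusted P = 0.0185) and without 9 h replicate 3 (0.41, limma adjusted P = 0.0263). The decrease from 1 h to 6 h was called, at -0.50 (95% interval -0.79 to -0.21, limma adjusted P = 0.0143), as was that from 1 h to 9 h, at -0.64 (limma adjusted P = 0.00285). Of all genes, 24.1% and 25.6% were called in these comparisons. With only the arrays of the second scan day, C1qb differed from 1 h by -0.47 at 9 h (limma adjusted P = 0.0315) and by -0.50 at 6 h (limma adjusted P = 0.0134). The call at 6 h against 1 h was lost without 1 h replicate 1 (-0.42, limma adjusted P = 0.0584) and under 4 other ways of background correction or scaling, namely quantile normalization (-0.21, limma adjusted P = 0.233), the deposited matrix (-0.22, limma adjusted P = 0.167), normexp background correction (-0.33, limma adjusted P = 0.32) and a shift to the array median (-0.49, limma adjusted P = 0.0899). The call over all time-points was lost with the same 4 settings, where the adjusted P lay between 0.0312 (the deposited matrix) and 0.379 (normexp background correction).

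C1qa, the A chain, had levels of 4.21, 4.31 and 4.28 at 0 h and of 3.52, 3.87 and 3.80 at 1 h. All 1 h arrays were below all 0 h arrays, the reverse of C1qb, but the difference of -0.54 (95% interval -0.92 to -0.16) was not called (limma adjusted P = 0.0893). It was called with each array shifted to its median (-0.71, limma adjusted P = 0.0397), with array weights (-0.62, limma adjusted P = 0.0261) and without 3 h replicate 3 (-0.54, limma adjusted P = 0.0464). The 0.5 h arrays gave 4.25, 4.0 and 4.38, and the 3 h arrays 3.78, 4.10 and 4.54. The 6 h arrays gave 3.75, 3.70 and 4.07, and the 9 h arrays 3.96, 4.02 and 3.69, so that 0.5 and 3 h overlapped with 0 h while 6 and 9 h lay below it. The second C1qa probe also lay lower at 1 h on all 3 arrays, with a difference of -0.54 (95% interval -1.02 to -0.05). At 9 h its difference was -0.02, where that of the first was -0.38. Over the 18 arrays the 2 probes correlated at r = 0.82.

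C1qc, the C chain, ran from 2.38 to 2.69 at 0 h. At 1 h it was 2.05, 2.09 and 2.55, with a difference of -0.28 (95% interval -0.61 to 0.05) and groups that overlapped. Its second probe had -0.01, -0.14 and 0.34 at 0 h against -0.45, -0.56 and -0.16 at 1 h, with no overlap and a difference of -0.45 (limma adjusted P = 0.152). At 3 h the differences from 0 h were 0.08 and 0.07, and neither was called. At 9 h the 3 arrays of the first probe were 2.51, 2.52 and 2.51, and the difference from 0 h was 0.00 (95% interval -0.33 to 0.33).

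C1qa and C1qc varied together from array to array more closely than either did with C1qb. After each time-point's mean was taken out, the 18 arrays gave r = 0.64 for C1qa with C1qc, 0.02 for C1qa with C1qb and -0.19 for C1qb with C1qc. Genes on an array share its RNA, cell makeup and scaling, so these values describe the arrays only. The summed level of 10 macrophage markers ranged from 51.0 to 57.5 on the 0 h arrays and was lower on every 1 h array, from 40.1 to 48.9, as for C1qa. At 3 h its values were 59.1, 70.0 and 102, in the same array order as the 3 C1qa levels. At 6 and 9 h the macrophage sum lay above its 0 h range on every array, whereas C1qa lay below its own. C1qa correlated with the macrophage sum at r = 0.03 over the 18 arrays. After each time-point's mean was taken out, the value was 0.77, and it was 0.84 with the summed neutrophil markers. With the macrophage sum, C1qc gave 0.48 over the 18 arrays and 0.69 after the means were taken out. C1qb gave -0.73 and -0.43. At 1 h the 1 macrophage marker called was Aif1, with a difference of -0.54, and none was higher. The part of macrophage content in the C1q levels was not tested.

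**Figure D2:**
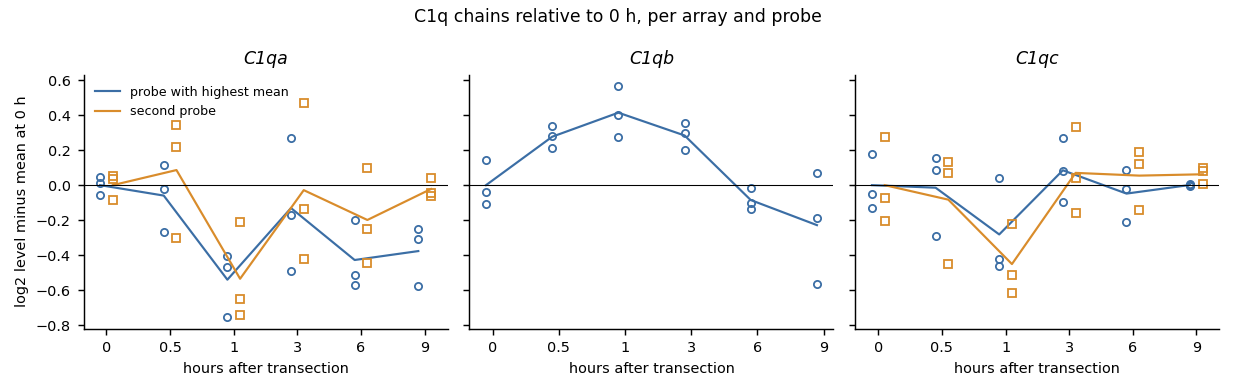
Levels of the 3 C1q chains minus their mean at 0 h, per array, against hours after transection. Circles and squares are single arrays of the first and second probe and lines join the means of 3 arrays; at 1 h C1qa lies 0.54 below 0 h with both probes, whereas C1qb lies 0.41 above.

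C1s, the protease that cleaves C4 and C2, was the least variable component. Its levels spanned 4.78 to 5.10 over all 18 arrays, a range of 0.32. At 9 h the difference from 0 h was 0.10 (95% interval -0.09 to 0.29). The second probe spanned 3.09 to 3.71 and differed at 9 h by 0.13 (95% interval -0.22 to 0.48). C1r, the partner protease, was not called either, with a mean of 5.25 at 0 h and 5.08 at 9 h.

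C2, the substrate of C1s, lay at 2.45, 2.59 and 2.66 at 0 h and at 2.84, 2.88 and 2.42 at 9 h. The arrays of 1 h were 1.94, 2.40 and 3.08 and those of 3 h were 1.95, 2.68 and 3.10, so these time-points spread over more than a log2 unit. No difference from 0 h was called, and that at 9 h was 0.14 (95% interval -0.46 to 0.75). Its probe lay at chr20:4071504-4071563 with 5412 bases between it and the probe of Cfb. Cfb, its neighbour, was the component with the largest change.

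Cfb encodes factor B, which supplies the catalytic part of the alternative convertase. Its probe is shown because the largest change of the 9 components rests on it. The 60 bases map to chr20:4076976-4077119 of rn4 on the plus strand, a span of 144 bases, so the oligonucleotide crosses from one exon to the next.
Cfb probe: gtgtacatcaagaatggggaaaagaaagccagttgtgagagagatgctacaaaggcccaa

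The Cfb levels were 1.92, 2.10 and 2.43 on the 0 h arrays, 2.32, 2.39 and 2.63 on the 0.5 h arrays, and 1.71, 2.21 and 2.53 on the 1 h arrays. The 3 h arrays gave 1.88, 2.56 and 2.99, the 6 h arrays 2.68, 3.4 and 3.61, and the 9 h arrays 4.0, 3.86 and 3.45. The arrays of 6 and 9 h lay above all arrays of 0 h, and those of 9 h also above all arrays of 0.5, 1 and 3 h. The overall change was called (limma F-test, adjusted P = 0.00266).

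Against 0 h, Cfb was higher by 1.08 at 6 h (95% interval 0.44 to 1.72, limma adjusted P = 0.0162), 2.11-fold. At 9 h it was higher by 1.62 (95% interval 0.98 to 2.26, limma adjusted P = 0.00111). At 0.5, 1 and 3 h the differences were 0.29, 0.00 and 0.32 and were not called. The step from 3 h to 6 h was 0.76 (limma adjusted P = 0.156) and that from 6 h to 9 h was 0.54 (limma adjusted P = 0.489), so neighbouring late time-points were not separated by the test. From 1 h, Cfb rose by 1.08 at 6 h (limma adjusted P = 0.0162) and by 1.62 at 9 h (limma adjusted P = 0.00124). Within the second scan day, Cfb at 9 h exceeded 1 h by 1.78 (limma adjusted P = 0.0145, 2 arrays at 9 h). There the 6 h difference from 1 h was 1.08 with limma adjusted P = 0.0479 and missed the call. The 6 h difference from 1 h was also lost without 1 h replicate 1 (0.86, limma adjusted P = 0.0709), 6 h replicate 2 (limma adjusted P = 0.0564) or 6 h replicate 3 (limma adjusted P = 0.0655).

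The 9 h increase of Cfb was called under every one of the 31 alternative settings computed, with differences from 1.44 to 1.78. The 6 h increase was lost without 0 h replicate 1, the array rich in muscle RNA (0.96, limma adjusted P = 0.0568), and without 6 h replicate 2 (0.99, limma adjusted P = 0.0544) or 6 h replicate 3 (0.89, limma adjusted P = 0.066). It was also lost with a shift to the array median (0.92, limma adjusted P = 0.0486) and with normexp background correction (1.11, limma adjusted P = 0.0542). Without 0 h replicate 1 the 9 h increase was 1.5 (limma adjusted P = 0.00553).

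C3 is the central protein on which both pathways converge. Its probe is shown because C3 was the other component that rose, and it was placed in rn4 on unassigned sequence, chrUn:64513437-64513496, on the minus strand.
C3 probe: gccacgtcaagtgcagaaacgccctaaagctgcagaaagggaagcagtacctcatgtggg

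C3 had levels of 0.26, 0.23 and 0.57 on the 0 h arrays, 0.16, 0.19 and 0.43 on the 0.5 h arrays and -0.19, 0.10 and 0.54 on the 1 h arrays. The 3 h arrays gave 0.51, 0.63 and 1.05, the 6 h arrays 0.70, 0.54 and 0.89, and the 9 h arrays 1.05, 1.11 and 1.41. The 9 h arrays lay above every array of the other time-points, though the lowest of them and the highest of 3 h were both at 1.05 after rounding. The overall change was called (limma F-test, adjusted P = 0.0044), but not with normexp background correction (adjusted P = 0.0578) or within the second scan day alone (adjusted P = 0.0651).

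At 9 h C3 exceeded 0 h by 0.84 (95% interval 0.43 to 1.24, limma adjusted P = 0.0042). The differences at 3 h, 0.38, and at 6 h, 0.36, had intervals that reached 0 (-0.03 to 0.78 and -0.05 to 0.76). Against 1 h, C3 differed by 0.58 at 3 h (limma adjusted P = 0.0663), 0.56 at 6 h (limma adjusted P = 0.0418, unadjusted P-value just above the limit) and 1.04 at 9 h, of which the last was called. Within the second scan day the 9 h difference from 1 h was 0.93 (limma adjusted P = 0.0257). The 9 h increase over 0 h was called under all 31 alternative settings, with differences from 0.66 to 0.94, and was 0.79 without 0 h replicate 1 (limma adjusted P = 0.016).

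The 250 bases before the C3 start site are shown because C3 is the component that rose for which RefSeq gave an upstream sequence here. They span chr9:2201340-2201589 of the GRCr8 build, are written 5′ to 3′ on the minus strand, and belong to a build later than that of the probes. Upstream sequences were found for 4 of 9 components, C1qa, C1qb, C3 and Cfd. Capitals mark the match to TTGCNNAA, a core of C/EBP sites.
C3 upstream: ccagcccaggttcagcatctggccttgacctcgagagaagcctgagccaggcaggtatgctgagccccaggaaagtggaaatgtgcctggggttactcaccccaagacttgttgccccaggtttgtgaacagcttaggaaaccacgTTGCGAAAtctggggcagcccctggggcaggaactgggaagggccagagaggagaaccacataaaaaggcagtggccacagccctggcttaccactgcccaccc

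Searched on both strands, TTGCNNAA had 1 match in the C3 sequence, starting 104 bases before the start site, and none in those of C1qa, C1qb and Cfd. Of 33469 upstream sequences of the same length, 9.22% held it. TTCNNNGAA, a core of STAT sites, occurred in C1qa and not in the other 3 sequences (7.67% of all), and the NF-kB consensus was in none of the 4 (4.36% of all). The searched words do not contain one another. A match describes letters in this window and not binding.

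C3 and Cfb rose beside several cell type markers. The summed macrophage marker level was 115 to 142 at 9 h, above the 0 h range given earlier, with 4 of 10 markers called higher, among them Cd14 and Lyz2, and 1 lower, Adgre1. The summed level of 9 neutrophil markers went from between 0.921 and 1.14 at 0 h to between 19 and 22.9 at 9 h, and 8 of the 9 were called higher. Of these, Elane and Mmp8 were not well above background on any 0 h array and were on all 9 h arrays. Fibroblast markers summed to 1597 to 1656 at 0 h and 1101 to 1154 at 9 h, while Schwann cell markers summed to 934 to 1101 at 0 h and 738 to 838 at 9 h. The part of these cell types in the C3 and Cfb results was not tested.

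**Figure D3:**
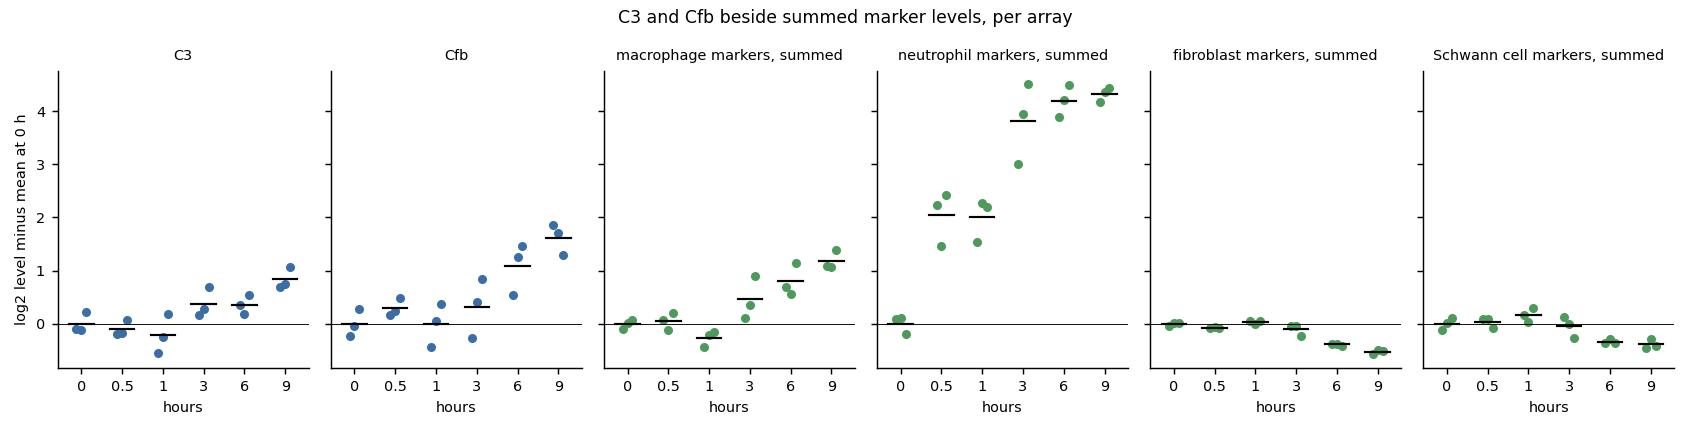
C3 and Cfb (log2 level minus the mean at 0 h) beside the log2 summed level of macrophage, neutrophil, fibroblast and Schwann cell markers on the same scale, against hours after transection. Points are single arrays and bars the means of 3 arrays; C3 and Cfb end 0.84 and 1.62 above 0 h, while neutrophil markers are already higher on every array at 0.5 h.

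By the rule of highest Pearson correlation over the 18 arrays, among 11317 genes detected on all arrays, the course of Cfb was most like those of Fcgr1a (r = 0.931) and Ms4a6a (r = 0.925). C3 was most like Ninj1 (r = 0.949), Snx20 (r = 0.947) and Serpina3n (r = 0.916). C1qb was most like Mboat2 (r = 0.947), Peli2 (r = 0.921) and Serpine2 (r = 0.911). No gene is named for more than 1 of these components. Fcgr1a is a macrophage Fc receptor and Serpina3n an acute-phase protease inhibitor.

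Cfd, factor D, is the protease that cuts factor B and is made in quantity by adipocytes. Its levels were 5.81, 5.41 and 5.23 on the 0 h arrays, 5.75, 5.95 and 6.44 on the 0.5 h arrays and 5.12, 6.36 and 6.45 on the 1 h arrays. The 3 h arrays gave 5.24, 6.08 and 6.39, the 6 h arrays 5.65, 5.76 and 5.99, and the 9 h arrays 5.71, 6.20 and 6.04. Arrays of 1 time-point spread by more than a log2 unit at 1 and 3 h, and all time-points overlapped with 0 h. The difference at 9 h was 0.50 (95% interval -0.24 to 1.24, limma adjusted P = 0.278).

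The spread of Cfd went with adipocyte markers, though not with these alone. The lowest Cfd array at 0, 1 and 3 h was each time also the array with the lowest summed adipocyte level, 26.7, 39.1 and 33.7, where the other arrays of these time-points had 42.9 to 88.9. At 0.5, 6 and 9 h the array with the lowest Cfd level was not the one with the lowest adipocyte sum. After each time-point's mean was taken out, Cfd correlated over the 18 arrays at r = 0.82 with the adipocyte sum, at 0.80 with the neutrophil sum, at 0.76 with the sum of the other complement genes and at 0.60 with the macrophage sum. With the time-point means kept in, the values were 0.80, 0.41, 0.35 and 0.26. Of the 9 adipocyte markers, none was called at any time-point against 0 h. The part of fat tissue and of the other cell types in the Cfd levels was not tested.

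Serping1, C1 inhibitor, was measured by 2 probes that differed in direction. The brighter probe, at chr3:67968828-67968887, had levels of 7.21, 7.45 and 7.39 at 0 h and 7.06, 7.04 and 6.92 at 9 h, all lower. Its difference of -0.35 (95% interval -0.56 to -0.14) was called (limma adjusted P = 0.0147), though the gene was not called over all time-points (limma F-test, adjusted P = 0.0773). The second probe, at chr3:67975119-67976458 and crossing an exon boundary, had 2.23, 2.07 and 2.37 at 0 h and 2.52, 2.49 and 2.46 at 9 h, all higher. Its difference of 0.27 (95% interval -0.11 to 0.64) was not called (limma adjusted P = 0.256).

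Over the 18 arrays the Serping1 probes correlated at r = -0.25. The difference between the probes itself was not tested. The mean of both gave -0.04 at 9 h (limma adjusted P = 0.811), and under quantile normalization the brighter probe gave -0.09 (limma adjusted P = 0.513). The deposited matrix gave -0.08 (limma adjusted P = 0.503) and normexp background correction -0.26 (limma adjusted P = 0.635). The call was also lost without 0 h replicate 2 (-0.30, limma adjusted P = 0.0607), 0 h replicate 3 (-0.33, limma adjusted P = 0.0482) or 9 h replicate 3 (-0.30, limma adjusted P = 0.058). With only the arrays of 0 h and 9 h it was lost too (-0.35, limma adjusted P = 0.0596). Without 0 h replicate 1 the difference was -0.42 (limma adjusted P = 0.00934). Within the second scan day, the brighter probe differed from 1 h by -0.15 at 9 h and was not called (limma adjusted P = 0.448). Endothelial markers summed to 59.4 to 64.0 on the 0 h arrays and to 44.5 to 46.3 on the 9 h arrays, and their part in the Serping1 result was not tested.

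Counted by comparison, the components were called at 6 and 9 h. At 0.5, 1 and 3 h against 0 h none was called, where 6.1%, 5.73% and 14.0% of all genes were. At an unadjusted P-value under 0.05, limma gave 0, 2 (C1qa and C1qb) and 0 of the 9, against 22.5%, 23.6% and 29.9% of all genes. At 6 h 1 of 9 was called (Cfb), where 25.0% of genes were. At 9 h 3 were called, Cfb and C3 higher and Serping1 lower, where 31.3% of genes were called, 16.0% higher and 15.2% lower. The median change of the 9 at 9 h was 0.10, beside 0.02 for all genes. These comparisons share the 0 h arrays.

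Some components did not overlap with 0 h at all. All 3 arrays lay above all 0 h arrays for C1qb and C1s at 0.5 h, where 18.5% of genes did so. At 1 h this held for C1qb (19.3% of genes), and C1qa lay wholly below (11.1%). At 3 h C1qb was above (21.7%). At 6 h Cfb was above (24.5%), with C1qa and Serping1 below (22.0%). At 9 h Cfb and C3 were above (28.8%), again with C1qa and Serping1 below (24.6%).

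Between later time-points, none of the 9 was called at 3 h against 1 h (10.2% of all genes), with 3 at an unadjusted P-value under 0.05, namely C1qa, C1qc and C3, against 24.5% of all genes. At 6 h against 1 h 2 were called, Cfb higher and C1qb lower, where 24.1% of genes were called. At 9 h against 1 h 3 were called, Cfb, C3 and C1qb, beside 25.6% of genes, and the same 3 within the second scan day, beside 16.5%. There, 6 h against 1 h gave C1qb alone, beside 21.8%. No component was called between 6 h and 9 h (0.011% of all genes), and C3 alone had an unadjusted P-value under 0.05 there, where 11.6% of genes did.

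**Figure D4:**
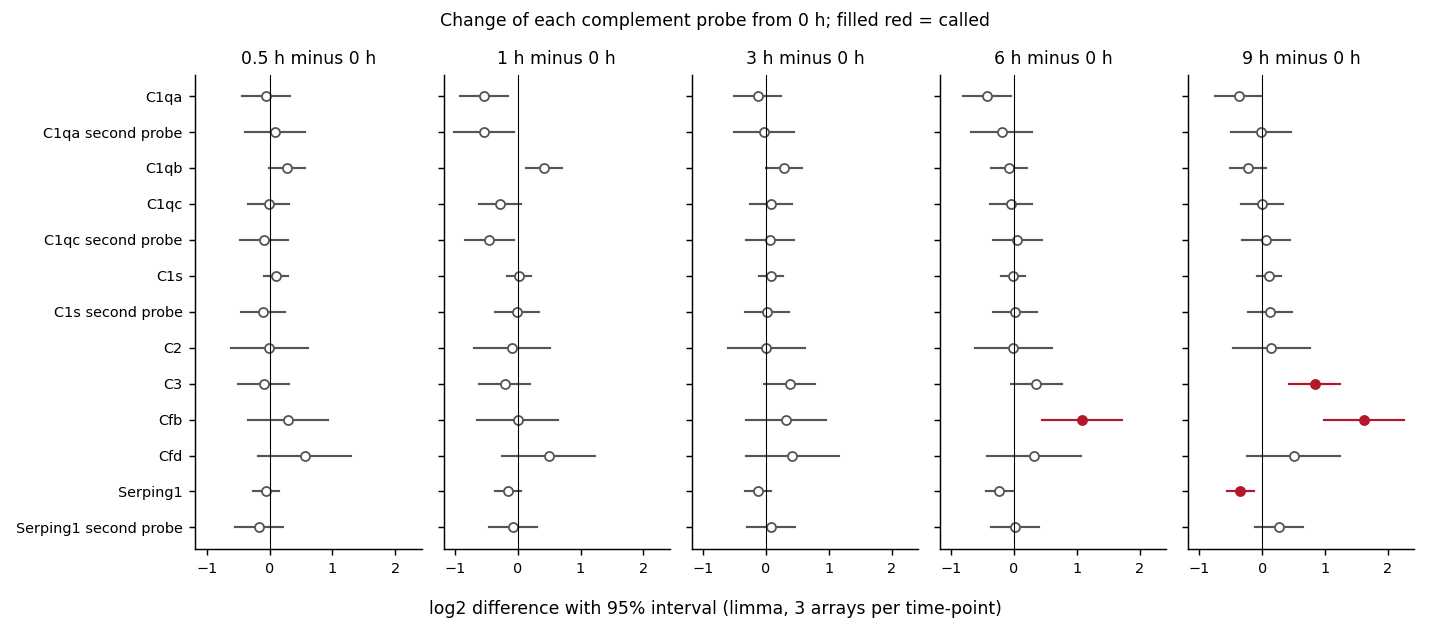
Log2 difference from 0 h of all 13 complement probes at 0.5, 1, 3, 6 and 9 h, with the 95% interval of limma from 3 arrays per time-point. Filled red points were called; these are Cfb at 6 and 9 h, C3 at 9 h and the brighter Serping1 probe at 9 h, whose second probe lies on the other side of 0.

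Of 39 other genes of the complement system found on the array, 30 were tested, and 12 of them were called over the time-points, beside the 34.8% of all genes. Of the 30, 10 were called higher and 2 lower at 9 h against 0 h, beside 16.0% and 15.2% of all genes. At 6 h the calls were 8 higher and 1 lower (12.3% and 12.7% of all genes). At 3 h 2 were higher (7.54%), at 1 h 1 was lower (1.98%), and at 0.5 h none was called (6.1% in either direction). The median change of the 30 at 9 h was 0.16, beside 0.02 for all genes.

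Among recognition molecules, Fcnb, a ficolin of the lectin pathway stored in neutrophils and monocytes, rose by 4.74 ± 0.41 (SE) at 9 h and by 4.33 at 6 h. C1ql1, a C1q-like protein, was called higher at 9 h but was not well above background on any 0 h array. Masp1, a lectin pathway protease, was called over the time-points with means of -0.85 at 0 h, -0.33 at 1 h and -1.11 at 9 h. This call was lost for Masp1 with the mean of all its tested probes (limma adjusted P = 0.611), a shift to the array median (limma adjusted P = 0.0356) and array weights (limma adjusted P = 0.0242). C4a differed at 9 h by 0.24 and was not called, and its value is uncertain because of its near-identical copy C4b.

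Among receptors, C5ar1 and C5ar2, which bind the C5a fragment, rose at 9 h by 1.68 and 1.63, although C5ar2 was not called with normexp background correction. Itgb2, the common chain of the receptors for deposited C3, rose by 2.19, and its partner Itgam was called higher at 6 h, by 2.03, but not at 9 h, where the difference was 1.12. The Itgam call was lost without 0 h replicate 1 or 2 or 6 h replicate 2 or 3 (1.85 to 2.03, limma adjusted P from 0.0526 to 0.0692). It was also lost with normexp background correction (1.89, limma adjusted P = 0.0791). At 9 h the Itgam value turned on single arrays and was 1.94 and called without 9 h replicate 1 (limma adjusted P = 0.009), 0.25 without 9 h replicate 3 and -0.08 with array weights. C3ar1, the receptor for the C3a fragment, differed by -1.03 at 1 h and by 0.82 at 9 h, both called. The C3ar1 call at 1 h was lost when 1 array was left out, for 0 h replicates 2 and 3, 0.5 h replicate 2, 1 h replicates 1 and 3, 3 h replicate 2 and 9 h replicate 1 (limma adjusted P from 0.0503 to 0.132), and its sign turned under normexp background correction (0.14). This call was lost too with only the arrays of 1 h and 0 h (limma adjusted P = 0.0518) and without the filter on dim probes (limma adjusted P = 0.0548). The C3ar1 call at 9 h was lost with 1 array left out for 0 h replicates 1 and 2, 0.5 h replicate 2, 1 h replicate 3, 3 h replicate 2, 6 h replicate 3 and each 9 h replicate (limma adjusted P from 0.031 to 0.0991). It was lost as well under normexp background correction (0.49, limma adjusted P = 0.793), quantile normalization, the median shift and the deposited matrix (0.58 to 0.64, limma adjusted P from 0.0416 to 0.051). C1qbp, a mitochondrial protein that also binds C1q, rose by 0.62 at 9 h. Within the second scan day, 9 h against 1 h was called for C5ar1, C5ar2, Itgb2, C3ar1 and C1qbp but not for Itgam (1.04, limma adjusted P = 0.182).

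Among regulators and terminal components, Cfi, the protease that inactivates C3b, rose at 9 h by 0.59 and C4bpa, a chain of C4b-binding protein, by 2.14. C4bpa was not called over all time-points, and its value was not followed under the alternative settings. Vtn and C8g fell, by 0.74 and 0.38. The C8g call was lost with normexp background correction (-0.35, limma adjusted P = 0.0722). The Vtn call was lost with only the arrays of 9 h and 0 h (limma adjusted P = 0.0452). C8b, a chain of the membrane attack complex, was higher by 1.34, and its call was lost with those arrays alone too (limma adjusted P = 0.0461). The call was lost for Cfi without 0 h replicate 3 (0.47, limma adjusted P = 0.0782) or 9 h replicate 3 (0.54, limma adjusted P = 0.0626), and for C8b without 0 h replicate 1 (1.30, limma adjusted P = 0.0407) or 9 h replicate 3 (0.90, limma adjusted P = 0.0723). Under normexp background correction both calls were lost (Cfi 0.39, limma adjusted P = 0.804, and C8b 0.64, limma adjusted P = 0.655). That of Cfi was lost also under quantile normalization, the median shift and the deposited matrix (0.40 to 0.42, limma adjusted P from 0.0387 to 0.0466). Within the second scan day, 9 h against 1 h was called for Cfi (0.70) and Vtn (-0.51). There, C8g (-0.30, limma adjusted P = 0.114) and C8b (0.14, limma adjusted P = 0.805) were not called. Cd55, Cd46, Clu and Cr1l, which restrain complement on surfaces or in plasma, were not called at 9 h, with differences from -0.29 to 0.04.

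**Figure D5:**
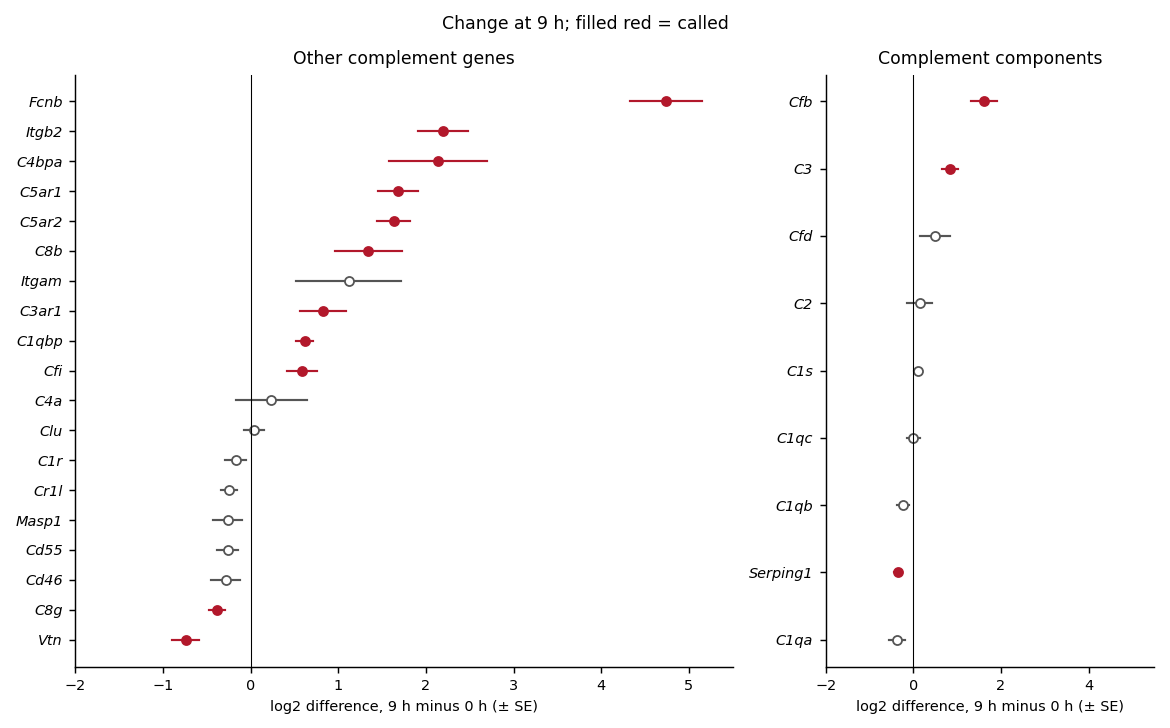
Log2 difference of 9 h from 0 h with its SE for the 19 other complement genes named with a value and, on the right over the same axis range, the 9 components. Filled red points were called; Fcnb stands at 4.74, beyond the 1.62 of Cfb, and Vtn and C8g are the called genes below 0 on the left.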

How the data were processed

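RNA of proximal sciatic nerve was hybridised to 18 one-colour Agilent rat arrays, 3 per time-point. The deposited scanner files hold the processed signal intensity of each spot, which the authors obtained with Agilent Feature Extraction 10.5.1.1 per the file headers (their methods name another version); background was subtracted and no scaling between arrays applied. The deposited matrix holds log2 values that the authors normalized in GeneSpring, with the same percentiles in all columns; it served as an alternative, and its columns matched the scanner values by rank, at 0.99999 or above. Probe positions are those of the rn4 annotation.

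Spots of control probes, and those marked as outliers, did not enter. The log2 signal minus the 75th percentile of each array was tested in limma 3.58.1 (R 4.3.3) over all 18 arrays, for the 32111 probes that 1 time-point or more had well above background on each of its 3 arrays (one mean per time-point, empirical Bayes). A call needs P under 0.01 and adjusted P under 0.05. A gene is represented by its tested probe with the highest mean, and backgrounds are counted over 27198 genes so represented. Named genes are the 9 components with every tested probe, the other complement genes called in the F-test and those the text counts, and for each component called in the F-test the 3 genes most like it, of which 1 is not reported here. Uncalled genes of the list are otherwise only counted. C4bpa, C1ql1, Cd55, Cd46, Clu, Cr1l, C4a and C1r were named after their values were seen.

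The components and gene lists were chosen with earlier results of these data known. Markers of cell types were summed on the linear scale; Ela2 was dropped from the neutrophil list because the name can denote another elastase. On simulated arrays (31912 probes, 200 changed at 9 h) the fit recovered 62% of 2-fold and 86% of 4-fold changes, with 7 false calls. The simulated noise was independent between probes and arrays and held no slide or scan-day effect. Of the real genes, 31.3% were called at 9 h against 0 h, a far larger share than was changed here. The adjusted P depends on that share. For these reasons the rates need not hold for the real arrays. The number of arrays limits the precision, and P-values set a difference of means against the spread between arrays within time-points. The alternatives were background correction (normexp with offset 50), quantile normalization, median shift, the deposited matrix, filters on dim probes, a replicate block, scan day, slide, array weights, the variance prior, the call rule, fewer arrays in the fit, the mean of a gene's probes and leaving out each array.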

Additional observations from a re-analysis of the deposited data

How the results depend on the processing

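The calls of Cfb and C3 at 9 h against 0 h held under all 31 settings, and no component reversed. Over all time-points 3 components were called, but 1 with normexp (Cfb had adjusted P = 0.0071, C3 had 0.0578 and C1qb 0.379). The count was 2 with quantile normalization, the median shift, the deposited matrix and only the second scan day. It was 4 with array weights and 3 to 4 with 1 array left out. Against 0 h, the count at 1 h was 0 and became 1 with the median shift and 2 with array weights (0 to 1 with an array left out), at 3 h 0 and 1 with the replicate block (0 to 0), and at 6 h 1, 0 with normexp and 2 with the replicate block (0 to 1). At 0.5 h it stayed 0 to 0 and at 9 h 2 to 3 with an array left out, and 2 to 3 under the other settings. At 3 h against 1 h the count of 0 became 1 with the median shift, with only probes detected on all 18 arrays, with the replicate block and with the trend and robust prior, and 2 with array weights (0 to 2, the 2 being C3 and C1qc without 1 h replicate 3). At 6 h against 1 h the count of 2 became 1 with normexp, quantile normalization, the deposited matrix, only the 2 time-points and only the second scan day (0 to 3, and 0 without 1 h replicate 1). Under some other settings it was 3. Under normexp 2 other complement genes reversed without a call, C3ar1 at 1 h against 0 h (0.14, adjusted P = 0.868) and C5ar2 at 6 h against 1 h (-0.17, adjusted P = 0.832). The cause of these differences was not tested.

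Over all tested probes, deviations of same-numbered arrays from their time-point means correlated at r from -0.26 to 0.56 (median 0.07, 45 pairs). Whether same-numbered arrays share any handling is not given by the labels and was not tested. For C3, the replicate 3 array was the highest at every time-point. The calls of components that the replicate block added were those of the second C1qc probe at 3 and 6 h against 1 h and of C3, with 0.38 at 3 h (adjusted P = 0.0254) and 0.36 at 6 h (adjusted P = 0.0198) against 0 h, and at 3 h (adjusted P = 0.00365) and 6 h (adjusted P = 0.00189) against 1 h. Scan day could not be fitted as a block for 1 to 9 h against 0 h. Slide was fitted as a random block, but no slide held more than 1 time-point, so that fit cannot separate slides from time-points. The median difference of all probes tested from 0 h was 0.32 at 1 h and 0.44 at 3 h under normexp and lay at -0.17 to -0.09 against 0 h under the median shift. The counts hide exchanges under the median shift: at 6 h against 0 h Cfb lost its call and C1qa gained one (-0.58, adjusted P = 0.0371), and at 6 h against 1 h C1qb lost its call and C3 gained one (0.57, adjusted P = 0.0343). Calls over all time-points ranged from 3354 probes with normexp to 14669 with array weights, beside 11040. Of the other complement genes, 5 to 13 were called over the time-points and 5 to 14 at 9 h.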
